A study of Mus musculus with 2 samples.

Results

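Mir375 and the cluster of Mir216b, Mir216a and Mir217 are miRNA genes best known from the pancreas, and their levels were read here in embryonic mouse liver. The 4 genes were chosen by symbol, through their Ensembl identifiers, from the 1973 annotated miRNA genes of the count tables, and all 4 had reads in both libraries. The tissue was liver of strain B6NCrl embryos at day 12.5, with males and females pooled and no treatment. There was a single group of 2 biological replicates, made from 120 embryos (replicate 1) and 88 embryos (replicate 2). Both pools carry the same donor identifier in the labels, so the spread between them may be technical in part. No library of pancreas, gut or any other tissue was analysed here.

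miRNAs are short RNAs cut from hairpin transcripts, and the seed, bases 2 to 8 of the mature strand, largely sets which mRNAs they repress. In the pancreas, miR-375 is a miRNA of the endocrine islet cells, where it restrains insulin release and is needed for a normal islet mass. It is also known from other epithelial and neuroendocrine cells, such as those of the gut, airway and pituitary. miR-216a, miR-216b and miR-217 are known from the acinar cells, which make the digestive enzymes. Liver and pancreas both bud from the foregut endoderm, and in the mouse embryo the first endocrine cells of the pancreas appear before the main wave of acinar differentiation.

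The mature sequences are shown because they tell how alike the genes of the cluster are and where their seeds differ. All 4 genes were found in the RefSeq table (build GRCm38.p6, the mm10 assembly), and the seed of each mature strand is in capitals, written 5′ to 3′. For Mir375 the hairpin, the counted unit, is given as well, with the 5p strand in capitals. The other mature strand of this hairpin is miR-375-3p, known as the main strand of Mir375. It had no entry of its own in the RefSeq table and is not marked here. The seed in capitals for Mir375 is therefore that of the 5p strand only.
Mir375 hairpin: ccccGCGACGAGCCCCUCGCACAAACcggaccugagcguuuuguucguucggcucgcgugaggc
miR-375-5p: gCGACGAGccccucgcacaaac
miR-216a-5p: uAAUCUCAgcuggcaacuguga
miR-216b-5p: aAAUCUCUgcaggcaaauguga
miR-217-5p: uACUGCAUcaggaacugacugga
miR-216a-3p: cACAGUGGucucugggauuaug
miR-216b-3p: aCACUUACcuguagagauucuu
miR-217-3p: cAUCAGUUccuaaugcauugccu

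miR-216a-5p and miR-216b-5p were alike in sequence, with the same base at 18 of 22 positions and at 6 of the 7 seed positions. Their 3p strands had the same base at 7 of 22 positions, and miR-217-5p and miR-216a-5p at 6 of 22. The seeds of the 7 mature strands shown all differed, and in the 1738 mature strands of the RefSeq table no strand of another gene had the seed of any of them. The seed of miR-375-3p was not compared. The longest run that miR-216a-5p and miR-216b-5p had in common was 6 bases. None of the 4 hairpins had 20 bases in a row in common with another miRNA gene at a different place, a sign used here for genes that lose reads because they align to several places. Each hairpin was counted as 1 unit, so the counts do not tell the 5p strand from the 3p strand. The hairpin of Mir375 stood apart in base composition, with 67.2% G and C against a median of 51.7% over 1005 mouse hairpins. Only 5.37% of those hairpins were as rich or richer, while Mir216a had 44.4%, Mir216b 44.2% and Mir217 38.0%. How well each hairpin's strands were captured in the library was not measured, so a ratio between genes need not be a ratio of true levels.

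In mm10 coordinates of GENCODE M21, Mir375 (ENSMUSG00000065616.2 in the tables, ENSMUSG00000065616.3 in M21) spans chromosome 1, 74900658 to 74900721, on the minus strand. It lies between genes and overlaps none of them. On the same strand, Cfap65 ends 1349 bases upstream and the crystallin gene Cryba2 starts 7514 bases downstream. The other 3 genes lie on the plus strand of chromosome 11 within 17.6 kb. Mir216b (ENSMUSG00000076318.1) spans 28746191 to 28746276, Mir216a (ENSMUSG00000065539.1) 28757012 to 28757083 and Mir217 (ENSMUSG00000065415.1) 28763728 to 28763835. Mir216a and Mir217 lie in intron 2 of the long noncoding RNA Gm12082, and Mir216b lies 5356 bases before the annotated start of that RNA. Mir216c is annotated on the opposite strand of Mir216b and was not counted as a gene of its own. The opposite strand of Mir216b held 0 reads in replicate 1 and 1 read in replicate 2, and that of each other member held 0 in both libraries.

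The libraries held 11057424 and 11013976 reads (replicates 1 and 2), with 3447858 and 3534816 reads on the sense strand of listed genes. Levels are given per 1000000 of the latter (CPM), and 1 read was worth 0.290 and 0.283 CPM. Markers of embryonic liver were abundant. The hepatocyte gene Mir122 stood at 54020 ± 9747 CPM (SD, n = 2), rank 2 in replicate 1 and rank 4 in replicate 2. The red cell gene Mir451a stood at 22459 ± 14195 CPM, with 12422 CPM in replicate 1 and 32496 in replicate 2. Intervals cover counting error only. Copies of the same molecule could not be told apart in the counts, so the true error may be larger.

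Mir375, the endocrine gene, was the one abundant member. It had 7940 reads in replicate 1, or 2303 CPM (95% exact Poisson interval 2252 to 2354). In replicate 2 it had 7373 reads, or 2086 CPM (2038 to 2134). The mean was 2194 ± 153 CPM (SD, n = 2), which is 0.219% of the sense counts. It ranked 74 in replicate 1 and 76 in replicate 2 of 1973 genes. In bulk tissue, few cells with much of a miRNA and many cells with little of it cannot be told apart.

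The acinar genes were each more than 2 orders of magnitude lower, and near the limit of detection. Mir217 had 36 reads in replicate 1 and 32 in replicate 2, or 10.4 CPM (7.31 to 14.5) and 9.05 CPM (6.19 to 12.8). Mir216b had 23 and 8 reads, or 6.67 CPM (4.23 to 10.01) and 2.26 CPM (0.977 to 4.46). Mir216a had 13 and 6 reads, or 3.77 CPM (2.01 to 6.45) and 1.70 CPM (0.623 to 3.69). All 3 lay above the 3 reads that a count of 0 allows, which are 0.870 and 0.849 CPM in these libraries, though for Mir216a the interval of replicate 2 reached below that level. The 3 together had 72 and 46 reads, or 20.9 and 13.0 CPM.

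**Figure D1:**
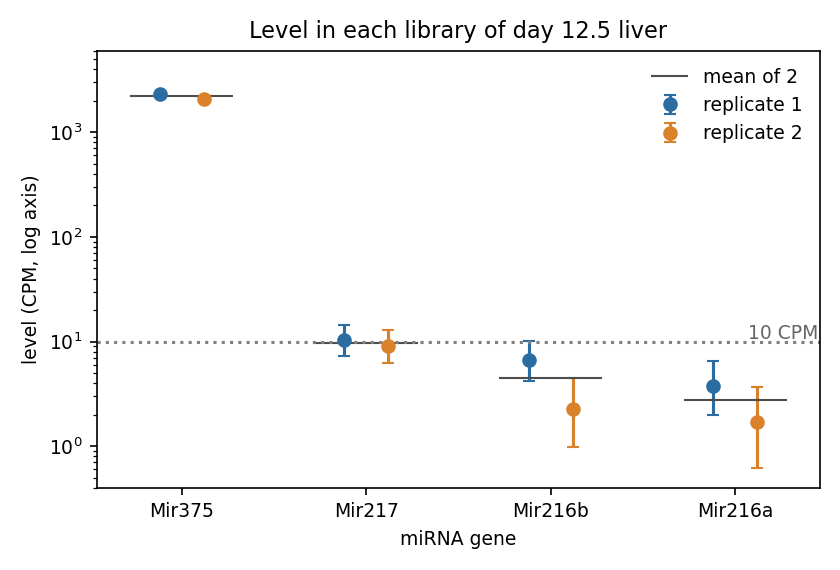
Level of each gene (CPM, log axis) in replicate 1 and replicate 2, with exact Poisson 95% intervals as bars and the mean as a horizontal line. The 2 libraries lie at 2303 and 2086 CPM for Mir375, and no acinar gene exceeds 10.4 CPM.

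The order from Mir375 through Mir217 and Mir216b to Mir216a was the same in both libraries. Mir375 exceeded Mir217 by 2185 CPM, far beyond the SDs of 153 and 0.982 CPM. The neighbours below were closer. The gap of 5.28 CPM between Mir217 (9.75 ± 0.982 CPM, SD, n = 2) and Mir216b (4.47 ± 3.12 CPM) was 1.29 times the sum of their SDs, and their intervals overlapped in replicate 1 but not in replicate 2. Mir216b and Mir216a (2.73 ± 1.47 CPM) did not differ beyond their spread, with a gap of 1.73 CPM and overlapping intervals in both libraries. By mean level they ranked 310 (Mir217), 359 (Mir216b) and 393 (Mir216a), against 75 for Mir375. At a threshold of 10 CPM in both libraries, 1 of the 4 members, Mir375, was detected, beside 15.3% of all 1973 genes. At 1 CPM all 4 passed, beside 464 of all 1973 genes.

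**Figure D2:**
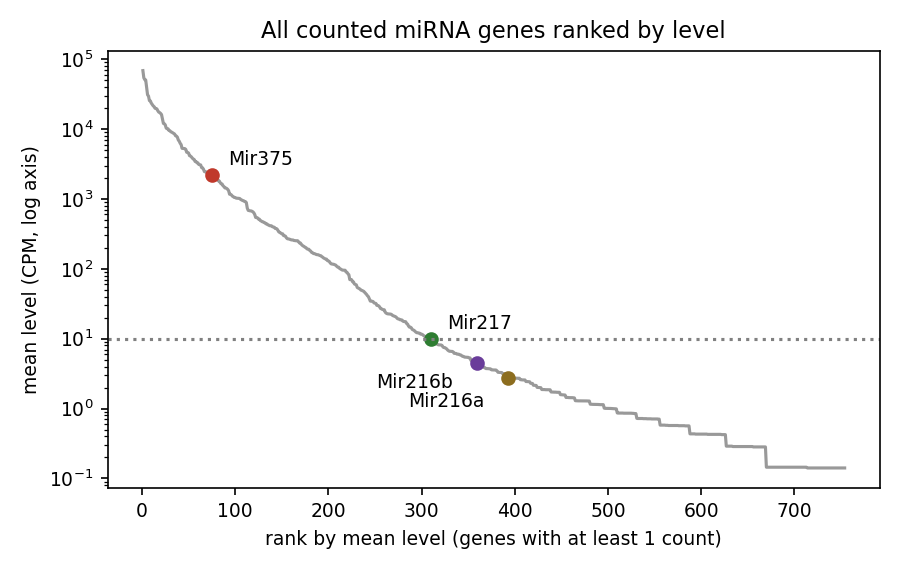
Mean level (CPM, log axis) of every gene with at least 1 count, by rank. Mir375 lies at rank 75 on the steep part of the curve, and Mir217, Mir216b and Mir216a lie at ranks 310, 359 and 393, below the dotted line at 10 CPM.

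Set against the acinar cluster, Mir375 had 110 times its summed reads in replicate 1 (95% interval 87.5 to 141) and 160 times in replicate 2 (120 to 219). The intervals, from the exact Clopper-Pearson interval of the share, overlapped, and the mean ratio was 135 ± 35.4 (SD, n = 2). The cluster therefore made up 0.899% of the joint reads of the 4 genes in replicate 1 and 0.620% in replicate 2. Against Mir217 alone the ratio was higher and differed little between the libraries, at 221 (159 to 315) and 230 (163 to 337). Against Mir216b it was 345 (230 to 545) and 922 (467 to 2136), and against Mir216a it was 611 (357 to 1148) and 1229 (564 to 3350). The defining acinar miRNAs thus lay at 10.4 CPM or less in both libraries, in which Mir375 stood at 2303 and 2086 CPM. The ratio that pancreatic tissue of this age would give was not analysed here, and the part of pancreatic tissue in the level of Mir375 was not tested.

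Within the cluster, Mir217 held the largest share of reads in both libraries. It held 50.0% of 72 reads in replicate 1 (95% Clopper-Pearson interval 38.0 to 62.0) and 69.6% of 46 reads in replicate 2 (54.2 to 82.3). Mir216b held 31.9% (21.4 to 44.0) and 17.4% (7.82 to 31.4). Mir216a held 18.1% (9.98 to 28.9) and 13.0% (4.94 to 26.3). For each of the 3 genes the intervals of both libraries overlapped, and the difference in shares was not tested.

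The 2 libraries were compared gene by gene, which compares these libraries and not conditions. Each of the 464 genes with at least 10 counts was tested two-sided by the exact binomial test, with library sizes scaled by TMM and p-values adjusted by Benjamini-Hochberg over all 464. It covers counting error only and called 187 genes, 40.3% of those tested. Of these, 104 were higher (22.4% of those tested) and 83 lower (17.9%) in replicate 2, and with total sense counts as library sizes the split was 77 higher and 101 lower. All 4 members were tested and 2 were called, both lower in replicate 2.

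Mir375 was the more even of these. Its log2 ratio of replicate 2 over replicate 1 was -0.08 (95% interval -0.13 to -0.03, adjusted p = 0.00190, exact binomial test), a smaller step than the median absolute log2 ratio of 0.26 over the tested genes. At its depth most genes were called, 86.5% of the 89 with over 10000 counts. Mir216b had a log2 ratio of -1.44 (-2.87 to -0.29, adjusted p = 0.0287, exact binomial test). It was 1 of the 8 genes called (4.55%) among the 176 with 10 to 100 counts, where the median absolute log2 ratio was 0.52. Mir216a at -1.03 (-2.77 to 0.41, adjusted p = 0.287, exact binomial test) and Mir217 at -0.14 (-0.88 to 0.58, adjusted p = 0.838) did not pass. The intervals of the 3 cluster genes overlap, and their summed reads had a log2 ratio of -0.61 (-1.19 to -0.07). In edgeR's exact test neither call held, with adjusted p = 0.957 for Mir375 and 0.304 for Mir216b at an assumed coefficient of variation of 0.1. With the coefficient of 0.162 estimated from these libraries the adjusted p was 1 for both. That coefficient takes in the same difference between the 2 libraries that is then tested. Failing with it therefore does not show that a gene was even. Only 2.59% and 1.08% of all tested genes passed those 2 tests.

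**Figure D3:**
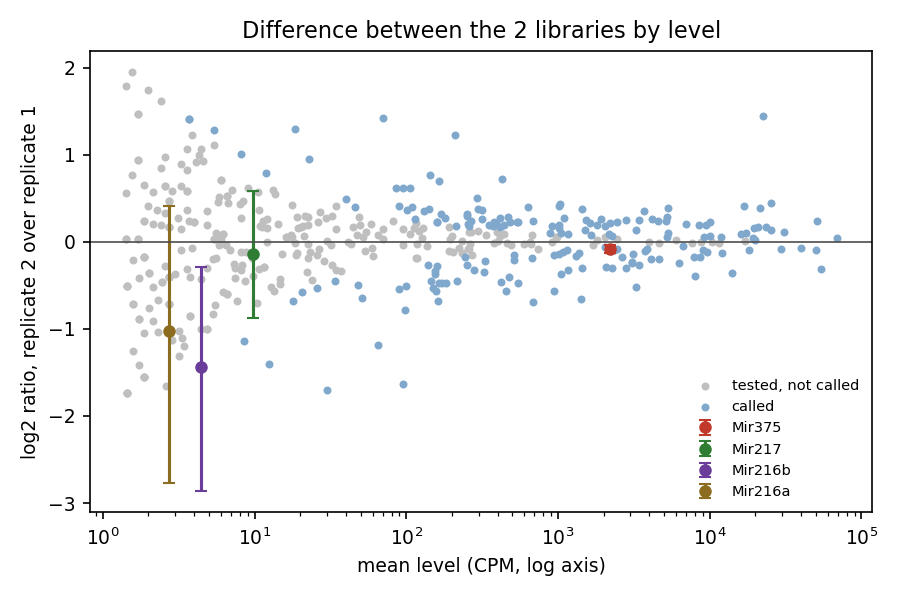
Log2 ratio of replicate 2 over replicate 1 against mean level (CPM, log axis) for the 464 tested genes, with 95% intervals for the 4 members. Mir375 lies close to 0 at -0.08, while the low counts of Mir216b and Mir216a leave wide intervals.

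Other miRNAs known from endocrine and neuroendocrine cells were much lower than Mir375. Of the 7 genes in that list, which includes Mir375, 6 reached 10 CPM in both libraries, beside 15.3% of all 1973 genes. Mir7-1, a gene of miR-7, which is also known from islet endocrine cells, was next at 241 and 266 CPM (replicates 1 and 2). Mir375 was 9.57 and 7.84 times as high. Mir7-1 shares 20 bases with Mir7-2, so both can lose reads to multiple alignment, and Mir7-2 stood at 10.7 and 15.6 CPM. Mir184 stood at 19.1 and 18.1 CPM, Mir7b at 13.1 and 10.2 CPM and Mir153 at 7.54 and 8.77 CPM. Mir204 stood at 11.0 and 26.0 CPM, the one gene of the list with a log2 ratio past 1 (1.29, 95% interval 0.74 to 1.89). In the exact binomial test 2 of the 7 were higher in replicate 2 (Mir7-1 and Mir204) and 1 lower (Mir375), beside 22.4% and 17.9% of all tested genes, with a median log2 ratio of 0.21 against 0.03 over all tested genes. In edgeR's exact test Mir7-1 passed neither with the estimated coefficient nor at 0.1 (adjusted p = 1 and 0.809), and Mir204 passed only at 0.1 (adjusted p = 0.209 and 0.0119).

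Mir148a, which is high in acinar cells but also in adult liver and other tissues, did not go with the cluster in level. It stood at 1203 CPM in replicate 1 and 1076 CPM in replicate 2, mean 1140 ± 90.1 CPM (SD, n = 2). Mir375 exceeded it by 1.91 and 1.94 times. Its log2 ratio of -0.10 (95% interval -0.16 to -0.03) was close to the -0.08 of Mir375. It was also close to the -0.14 (-0.88 to 0.58) of Mir217, a gene of the cluster. With the 3 cluster genes it made up the acinar list, in which 2 of 4 genes were called lower and 0 higher, beside 17.9% and 22.4% of all tested genes, with a median log2 ratio of -0.58. The call of Mir148a did not hold in edgeR's exact test (adjusted p = 1 with the estimated coefficient and 0.944 at 0.1).

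Mir375 was also higher than each gene of the epithelial lists. Mir192, of gut and liver epithelium, stood at 1825 and 1777 CPM (replicates 1 and 2), and Mir194-2, of the same primary transcript, at 942 and 898 CPM. The related copies Mir194-1 and Mir215 lay at 4.93 and 6.51 CPM and at 4.64 and 5.09 CPM, the range of the acinar genes. Mir194-1 and Mir194-2 share 20 bases, so both levels are uncertain. None of these 4 was called between the libraries, beside 40.3% of all tested genes.

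All 5 of the general epithelial miR-200 genes were called lower in replicate 2 by the exact binomial test, beside 17.9% of all tested genes. In edgeR's exact test the adjusted p was 1 for each with the estimated coefficient, and at 0.1 Mir200c alone passed (adjusted p = 0.0371). The red cell gene Mir451a went the other way, with a log2 ratio of 1.45, and passed with the estimated coefficient (adjusted p = 0.00449, edgeR). The red cell list was not uniform, as Mir144 had a log2 ratio of 0.36 and Mir486 one of -0.37. Neither Mir144 nor Mir486 passed with that coefficient. Whether a difference in cell makeup between the pools moved with these genes was not tested. Mir429 stood at 1750 and 1066 CPM and Mir200c at 861 and 510 CPM, with log2 ratios of -0.65 (95% interval -0.71 to -0.59) and -0.69 (-0.78 to -0.61). The 5 together came to 3409 and 2116 CPM. The summed miR-200 level lay above Mir375 in replicate 1 and near it in replicate 2, the ratio of Mir375 to it being 0.676 and 0.986. Mir375 had a log2 ratio of -0.08 (-0.13 to -0.03), and the miR-200 genes ranged from -0.46 (-0.57 to -0.36, Mir200b) to the -0.69 of Mir200c. These intervals cover counting error only, so a gap between them does not measure spread between libraries. The difference between Mir375 and these genes was not itself tested.

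Genes of stratified foregut and airway epithelium were also present at lower levels than Mir375. Mir203 of keratinising epithelium stood at 504 and 566 CPM, Mir31 at 390 and 404 CPM, and Mir205, of the basal cells of stratified epithelium, at 217.2 and 149 CPM. In this list 1 of 3 was called higher (Mir203) and 1 lower (Mir205), beside 22.4% and 17.9% of all tested genes. Neither call held in edgeR's exact test, with adjusted p = 1 for both with the estimated coefficient, and 0.7504 and 0.411 at 0.1. In the airway list, Mir34c stood at 263 and 273 CPM, Mir449a of ciliated cells at 65.0 and 65.6 CPM and Mir34b at 10.4 and 11.3 CPM. Mir449b and Mir449c had 1 read each over both libraries. None of the 3 airway genes that could be tested was called, beside 40.3% of all tested genes. Mir375 alone was 6.80 and 5.96 times as high as the 5 airway genes together, and 2.07 and 1.86 times the 3 genes of stratified epithelium together. Whether any of these cell types contributed to the Mir375 reads was not tested.

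**Figure D4:**
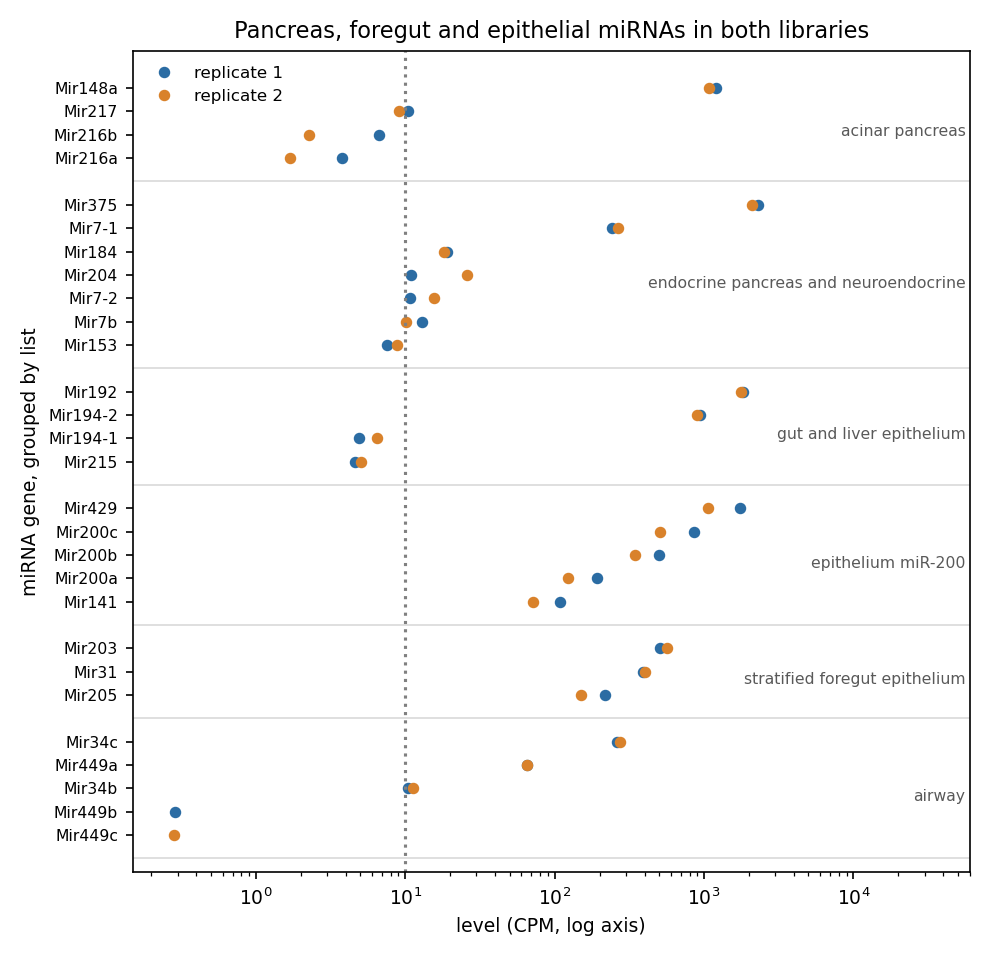
Level (CPM, log axis) of each gene of the 6 pancreas, foregut and epithelial lists in replicate 1 and replicate 2, with a dotted line at 10 CPM and a library with 0 reads (for Mir449b and Mir449c) not drawn. Mir375 leads all of them, and the acinar genes other than Mir148a lie at or below 10.4 CPM.

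By the distance of log2(CPM + 1) over the 2 libraries, the genes nearest to Mir375 were Mir361 (distance 0.03), Mir324 (0.12), Mir540 (0.12), Mir665 (0.13) and Mir543 (0.14). Mir361 had 8109 and 7377 reads, or 2219 ± 187 CPM (SD, n = 2). None of these 5 shares 20 bases with another miRNA gene. Nearest to Mir217 were Mir7036b with 36 and 31 reads, Mir26a-1 with 37 and 33, and Mir3064 with 39 and 29. Nearest to Mir216b were Mir3474 with 21 and 10 reads, Gm24245 with 23 and 11, and Mir199a-1 with 23 and 11. Nearest to Mir216a were Gm22925 with 13 and 6 reads, Mir6979 with 14 and 6, and Gm27486 with 12 and 7. Mir26a-1, Mir199a-1, Gm24245, Gm22925 and Gm27486 share 20 bases with other loci, so their own levels are uncertain. With 2 libraries of 1 tissue, this likeness is one of level and not of pattern across tissues.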

How the data were processed

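MicroRNA-seq was made from 2 pools of embryonic liver. The authors deposited raw read counts per miRNA gene for both strands together, the sense strand and the opposite strand, and per the deposited file lists these come from alignments to mm10 with GENCODE M4. Which aligner, counter and extraction were used was not given in the sources used here. Lines of no gene were left out of library sizes (29.4% and 25.8% of reads unmapped, 28.8% and 31.1% aligned to several places, 10.6% and 11.0% on no listed gene, in replicates 1 and 2). Sense counts of a strand-resolved table were used.

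Names and positions came from GENCODE M21, which held 1894 of the 1973 identifiers. TMM factors and the exact test came from edgeR 4.0.16 in R 4.3.3, and binomial and Poisson intervals from scipy 1.17.1. Log2 ratios have 0.5 counts added. With a single group, no conditions were compared and a quasi-likelihood fit had nothing to compare. The binomial test was tried on simulated counts that held counting error only. That check does not cover spread between libraries beyond counting error.

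The members, marker lists and alternatives were chosen with earlier results of these data known. Named genes are the members, all genes of the lists, the 5 genes nearest in level to Mir375 and the 3 nearest to each other member, and listed genes within 10 kb. Hepatocyte, erythroid, endothelial and mesenchymal lists served as a check of tissue, with 5.40%, 2.72%, 6.85% and 2.45% of counts. Of these, 0, 2, 1 and 4 genes were higher in replicate 2 and 1, 1, 0 and 0 lower (exact binomial test), of 1, 3, 1 and 5 tested, beside 22.4% higher and 17.9% lower of all tested genes. In edgeR's exact test with the estimated spread, Mir451a alone of these passed.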

Additional observations from a re-analysis of the deposited data

How the results depend on the processing

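The scale set the levels. With all reads of the library as denominator Mir375 stood at 694 and the summed cluster at 5.34 per 1000000, without the 10 highest genes in the denominator at 3650 and 28.2 CPM, and with counts of both strands Mir375 stood at 1984 CPM. Without one replicate or the other, Mir375 lay between 2086 and 2303 CPM, the cluster between 13.0 and 20.9 CPM and their ratio between 110 and 160. Against the largest cluster member, Mir217, the ratio was 225. The order of magnitude of the ratio does not depend on any library scaling, since both counts come from the same library.

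Between the libraries, edgeR's exact test called 5 genes with the estimated spread and 12 with a coefficient of variation of 0.1, and in each 0 of the 4 members, with 1 (Mir216b) at an unadjusted p under 0.05 in each. The estimated spread takes in the difference under test, so few genes can pass with it. A filter of 100 counts left 1 called member, Mir375, as the other 3 were not tested, beside 184 called of all 289 genes tested there. At 1 CPM 4 members were detected, beside 464 of all 1973 genes. All 4 log2 ratios stayed negative under every scaling, strand and added count tried. Leaving out a replicate gives no test between libraries. No paired analysis was possible because the labels give a single group. The reads on the 3 cluster genes, 72 and 46, limit what can be said of them.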
